A study of Oryza sativa with 27 samples.

Results

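The 9 rice loci described here were listed as genes of the unfolded protein response, the programme by which a cell raises the folding capacity of its endoplasmic reticulum (ER) when unfolded proteins collect there. They were taken by identifier from a count table of 46102 loci, and all 9 were present and passed the filter on low counts. The list names LOC_Os06g41770 as bZIP50 and LOC_Os05g34050 as bZIP39. Its other 7 loci are chaperones and folding enzymes, and their names are those of the list, read in its order. LOC_Os02g02410, LOC_Os05g35400 and LOC_Os08g09770 were taken as BiP members, LOC_Os11g09280 as protein disulfide isomerase, LOC_Os04g32950 as calnexin, LOC_Os07g14270 as calreticulin and LOC_Os06g50300 as ER HSP90. The count table holds no gene names. In the RefSeq gene table of rice, bZIP50 stands on chromosome 6 and bZIP39 on chromosome 5, as in the identifiers, and the other 7 names were not checked.

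In plants, ER stress is sensed at the ER membrane. The kinase and nuclease IRE1 splices the transcript of bZIP50, which then encodes an active transcription factor, while bZIP39 is made as a membrane-bound protein whose factor domain is released by proteolysis. Both factors act on genes for ER chaperones. BiP is the HSP70 of the ER lumen and the usual readout of ER stress, ER HSP90 (GRP94) is a chaperone that works after BiP, calnexin and calreticulin are lectins that hold glycoproteins during folding, and protein disulfide isomerase forms and reshuffles disulfide bonds. The counts are per locus, so spliced and unspliced bZIP50 transcripts, or a released bZIP39 protein, could not be told apart.

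The libraries are polyA RNA from suspension cultures of Oryza sativa, cultivar Tsukinohikari, used at an age of 5 days. Cultures received metcamifen at 5 µM, cyprosulfamide at 5 µM or the carrier DMSO alone, which all cultures received, and were sampled after 30, 90 and 240 min. Metcamifen and cyprosulfamide are herbicide safeners, compounds that reduce the injury of a crop by a herbicide. Each of the 9 groups has 3 biological replicates, 27 libraries in all. The labels do not say whether the 3 replicates are separate cultures or parts of one. The sample titles carry no replicate number, and the numbers used here follow the order of the libraries in each group. The culture was not checked against marker genes because the table is not paired with names. In bulk RNA, fewer cells and less RNA per cell cannot be told apart.

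Library totals ranged from 7278921 to 26162571 counts with metcamifen, from 5516373 to 43747251 with cyprosulfamide and from 16716222 to 21620410 with DMSO. The 9 loci together took 0.356% to 0.572% of all counts in metcamifen libraries, 0.413% to 0.54% in cyprosulfamide libraries and 0.402% to 0.65% in DMSO libraries. On the first principal component of all tested loci (21% of variance), the scores of metcamifen libraries were -44.1 to -21.3 in replicate 1 and -6.75 to 31.9 in replicates 2 and 3. For cyprosulfamide they were 16.8 to 47 in replicate 1 and -18.5 to 12.4 in replicates 2 and 3, and for DMSO 23.8 to 44.6 in replicate 1 and -45.2 to -17.8 in replicates 2 and 3. Replicate 1 of metcamifen and of DMSO also stood apart in most of the 9 loci, and values of metcamifen against DMSO without these 6 libraries are given further on. Levels are given as CPM, counts scaled to the library total after TMM normalization, which are not corrected for transcript length and are compared only within a locus.

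No locus of the list was called higher with either safener at any time. With all 27 libraries, the single locus called between treatments was that of bZIP39, which was lower with metcamifen at 90 min than with DMSO or cyprosulfamide. Over time, the BiP locus LOC_Os02g02410, calnexin and ER HSP90 were lower at 240 min than at 90 min in the metcamifen, cyprosulfamide and DMSO cultures when libraries of the same replicate number were compared. The fit with the replicate number as a block, which gave these calls, called 14.7%, 3.35% and 3.77% of all tested loci. Without the block, 0 of the 9 loci were called in each of these comparisons. The comparisons within each safener were added after values were seen. Protein disulfide isomerase and LOC_Os08g09770 were called in no time comparison.

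**Figure D1:**
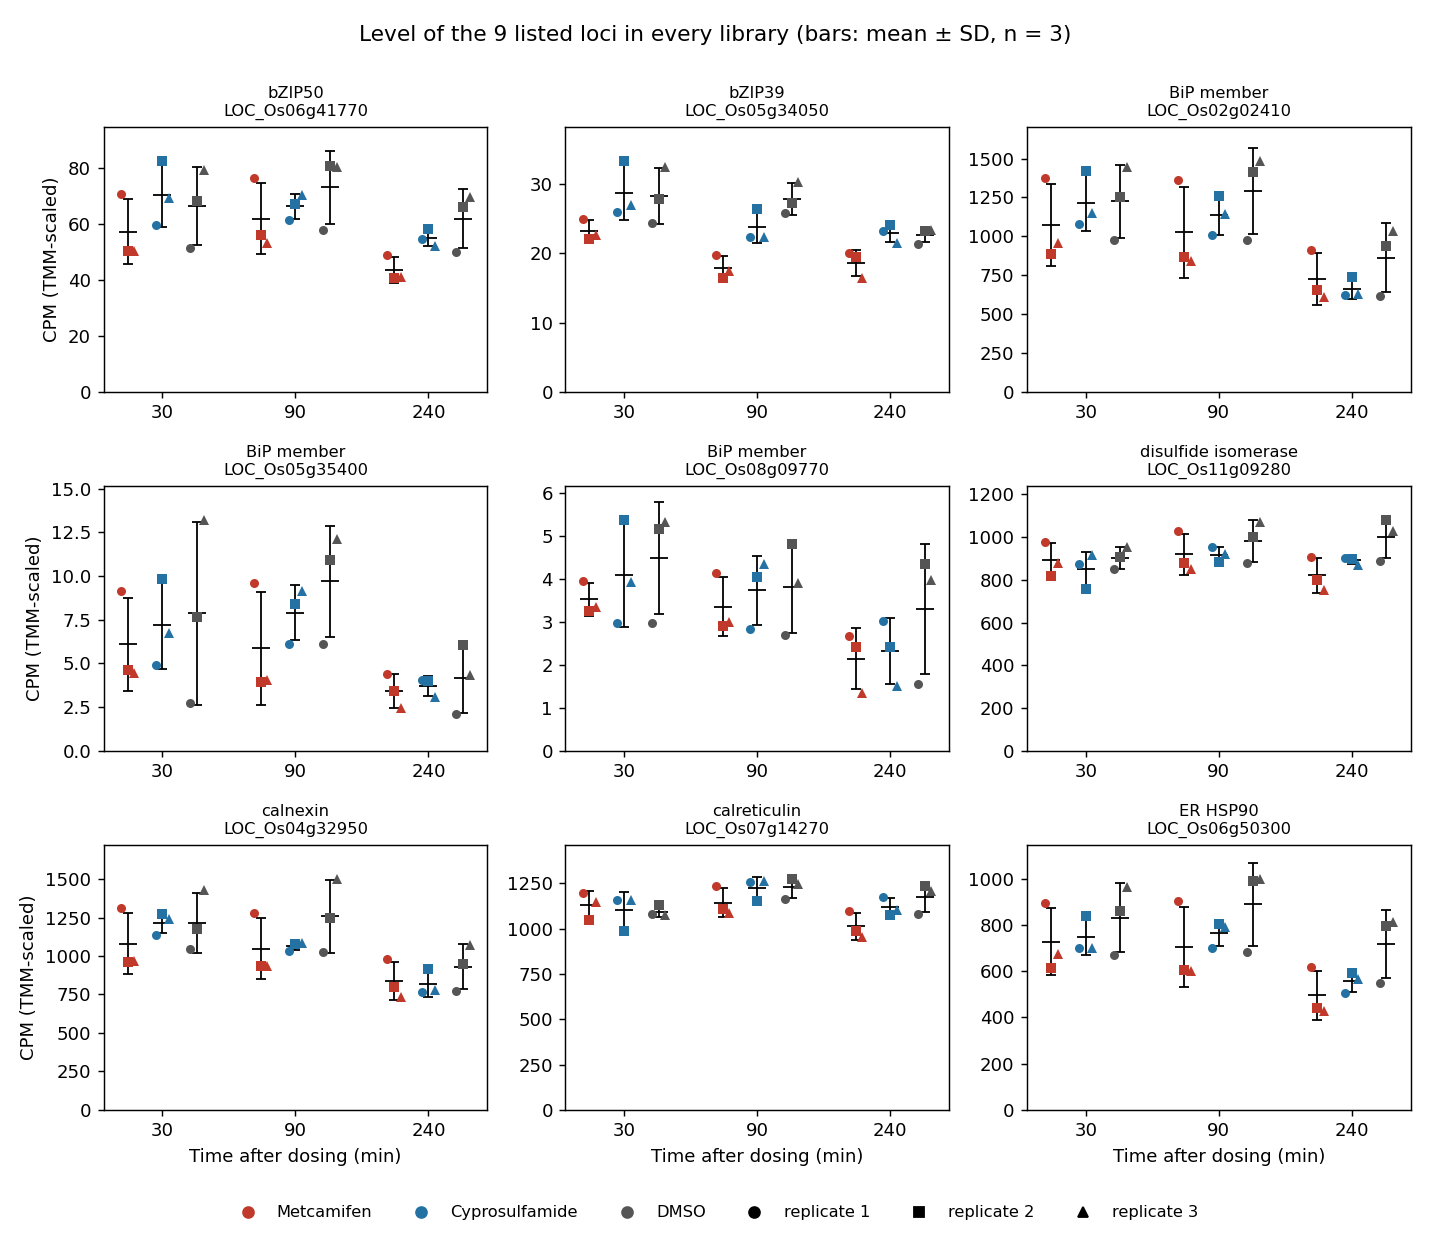
CPM of each of the 9 loci (vertical axes, each from 0) at 30, 90 and 240 min after dosing, with metcamifen left, cyprosulfamide in the middle and DMSO right at each time. Points are libraries, shaped by replicate number, and bars are mean ± SD (n = 3). The bZIP39 libraries with metcamifen at 90 min lie between 16.5 and 19.8 CPM, below the DMSO libraries at 25.8 to 30.3 CPM.

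The locus of bZIP39, the membrane-tethered factor, stood at 19.8, 16.5 and 17.5 CPM in the metcamifen libraries at 90 min, at 22.4, 26.4 and 22.4 CPM with cyprosulfamide and at 25.8, 27.3 and 30.3 CPM with DMSO. All 3 metcamifen libraries lay below every other library of that time. With metcamifen it fell by 35.6%, a log2 fold change of -0.64 against DMSO (SE 0.11), and passed edgeR's quasi-likelihood test with an adjusted p of 0.000464 (Benjamini-Hochberg over all tested loci). The call held in all 14 alternative settings, with adjusted p from 2.14e-05 to 0.00597. It was the only one of the 9 loci called, while 5.94% of all 26465 tested loci were called in this comparison.

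At 30 min bZIP39 had 25, 22.1 and 22.6 CPM with metcamifen, 26, 33.3 and 26.9 CPM with cyprosulfamide and 24.4, 27.9 and 32.4 CPM with DMSO. Here metcamifen and DMSO libraries overlapped, and the log2 fold change of -0.29 did not pass (SE 0.11, unadjusted p = 0.0177, adjusted p = 0.471). At 240 min it had 20, 19.4 and 16.5 CPM with metcamifen, 23.2, 24.1 and 21.5 CPM with cyprosulfamide and 21.4, 23.2 and 23.4 CPM with DMSO. The groups did not overlap at 240 min, but the change of -0.27 did not pass either (SE 0.11, adjusted p = 0.227). Nor did the effect itself differ by the test between times: it changed by -0.35 from 30 to 90 min (SE 0.16, adjusted p = 0.484) and by 0.36 from 90 to 240 min (SE 0.16, adjusted p = 0.407). With the replicate number as a block those p became 0.0676 and 0.064.

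Among the 9 group means, bZIP39 was highest with cyprosulfamide at 30 min, at 28.8 ± 3.99 CPM, next to DMSO at 30 min, at 28.2 ± 4.01 CPM (SD, n = 3). It was lowest with metcamifen at 90 min, at 17.9 ± 1.67 CPM, and at 240 min, at 18.6 ± 1.89 CPM. These last groups overlapped each other, and neither overlapped DMSO at 240 min, the next in order at 22.7 ± 1.12 CPM. All other neighbours in the order overlapped.

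The locus of bZIP50, the substrate of IRE1, was not called in any comparison with DMSO. Its libraries at 90 min stood at 76.3, 55.9 and 53.0 CPM with metcamifen, 61.4, 67.0 and 70.3 CPM with cyprosulfamide and 57.8, 80.7 and 80.3 CPM with DMSO, so all groups overlapped. At 240 min they stood at 48.7, 40.5 and 40.9 CPM with metcamifen, 54.7, 58 and 52.1 CPM with cyprosulfamide and 50, 65.8 and 69.6 CPM with DMSO. The metcamifen libraries were then the lowest, below every library of the other groups of that time. The log2 fold change against DMSO was -0.51 (SE 0.18, unadjusted p = 0.00803, adjusted p = 0.114 in edgeR). Without the DMSO replicate 1 libraries of all times it was -0.64 and passed (adjusted p = 0.0136). Replicate 1 is the lowest DMSO library at 240 min, so leaving it out lowers the change by construction. At 240 min bZIP50 was called in 2 of 14 alternative settings, both without DMSO replicate 1. The mean was lowest with metcamifen at 240 min, at 43.3 ± 4.61 CPM, and highest with DMSO at 90 min, at 72.9 ± 13.1 CPM (SD, n = 3). Of the 9 groups in order, the lowest alone did not overlap its neighbour.

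None of the chaperones passed the test between metcamifen and DMSO with all 27 libraries. The BiP locus LOC_Os02g02410 had 1378, 887 and 955 CPM with metcamifen at 30 min, 1077, 1420 and 1151 CPM with cyprosulfamide and 977, 1254 and 1444 CPM with DMSO. Replicate 1 was the highest library of metcamifen and the lowest of DMSO, and the groups overlapped widely. The log2 fold change of metcamifen against DMSO was -0.19 at 30 min (SE 0.22), -0.33 at 90 min (SE 0.22) and -0.25 at 240 min (SE 0.22), with adjusted p of 0.919, 0.578 and 0.681.

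ER HSP90, the partner of BiP in the ER lumen, had 619.4, 442.0 and 426.8 CPM with metcamifen at 240 min, 506.7, 591.7 and 568.6 CPM with cyprosulfamide and 550.3, 795.9 and 813.5 CPM with DMSO. Of the metcamifen libraries, only replicate 1 reached into the range of DMSO. The log2 fold change of -0.54 against DMSO did not pass (SE 0.19, unadjusted p = 0.00983, adjusted p = 0.131). It passed without DMSO_240min replicate 1 (-0.69, adjusted p = 0.045) and without Metcamifen_240min replicate 1 (-0.73, adjusted p = 0.0463). These are the lowest DMSO and the highest metcamifen library of that time, so leaving either out lowers the change by construction. ER HSP90 was called there in 4 of 14 alternative settings, each without replicate 1 libraries. At 30 and 90 min the change was -0.19 and -0.34 (SE 0.19 each), with adjusted p of 0.893 and 0.465.

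Protein disulfide isomerase stood at 753 to 909 CPM with metcamifen at 240 min, 870.0 to 905 CPM with cyprosulfamide and 889.8 to 1080 CPM with DMSO. Its change of -0.28 against DMSO did not pass (SE 0.096, adjusted p = 0.107), and it passed without DMSO_240min replicate 1 (-0.35, adjusted p = 0.0456). That is the lowest DMSO library of that time, so leaving it out lowers the change by construction. Protein disulfide isomerase was called there in 3 of 14 alternative settings, each without that library. Calreticulin varied least of the 9 loci over the 27 libraries, from 954 to 1274 CPM, a 1.33-fold range. Its changes under metcamifen were 0.05, -0.10 and -0.21 at 30, 90 and 240 min (SE 0.078 each, adjusted p = 0.959, 0.662 and 0.152). Calnexin gave -0.17, -0.26 and -0.15 (SE 0.16 each), none called, with metcamifen libraries at 737 to 1311 CPM over the 3 times and DMSO libraries at 775 to 1500.2 CPM.

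The remaining BiP loci, LOC_Os05g35400 and LOC_Os08g09770, had few reads, 23 to 414 and 13 to 225 counts per library. LOC_Os05g35400 ranged 6.25-fold over the libraries, the widest of the list, from 2.11 CPM in DMSO_240min replicate 1 to 13.2 CPM in DMSO_30min replicate 3. Its change under metcamifen was -0.45, -0.74 and -0.24 at the 3 times, with standard errors of 0.45, 0.44 and 0.48. LOC_Os08g09770 gave -0.37, -0.18 and -0.55, with standard errors of 0.33, 0.33 and 0.35. None of these passed.

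In all, metcamifen against DMSO gave calls for 0 of 9 loci at 30 min, 1 of 9 at 90 min and 0 of 9 at 240 min, where 1.35%, 5.94% and 4.65% of all tested loci were called. DESeq2 called the same numbers, and before adjustment 1, 1 and 5 of the 9 had p under 0.05. Among all 26465 tested loci, 1939, 3838 and 3980 had an unadjusted p under 0.05. The estimated change was below 0 at 8, 9 and 9 of the 9 loci, with medians of -0.19, -0.26 and -0.27, next to medians over all tested loci of -0.0037, -0.011 and -0.0069. It was below 0 at 51%, 52.6% and 51.5% of all tested loci. The upper end of the 95% interval of the change was at most 0.48 at 30 min, 0.50 at 90 min and 0.76 at 240 min, so for each locus it lay below a log2 fold change of 1, a doubling. The loci vary together from library to library, so their shared sign is not that of 9 separate measurements.

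**Figure D2:**
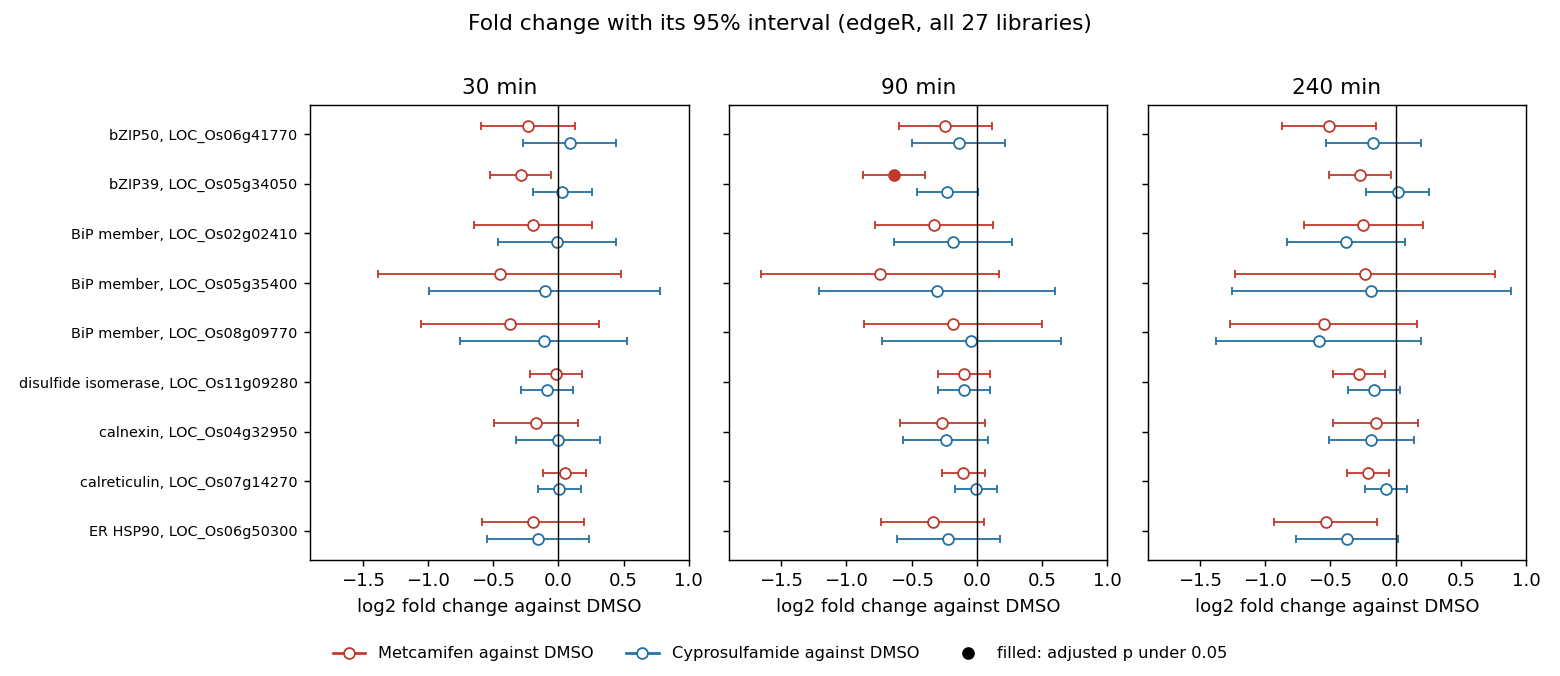
Log2 fold change against DMSO of each locus (rows) with its 95% interval, at 30, 90 and 240 min; metcamifen in red, cyprosulfamide in blue. The single filled point, with an adjusted p under 0.05, is bZIP39 with metcamifen at 90 min, at -0.64.

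Cyprosulfamide called none of the 9 loci against the same DMSO libraries in edgeR at 30, 90 or 240 min, where 0.00378%, 0% and 0% of all tested loci were called. DESeq2 also called 0 of the 9 at each time, and no locus of the list reached an unadjusted p under 0.05. Among all 26465 tested loci, 2548, 818 and 1669 did with cyprosulfamide. The largest of its changes in bZIP39 was -0.23 at 90 min (SE 0.11, adjusted p = 1), and those at 30 and 240 min were 0.03 and 0.02. BiP locus LOC_Os02g02410 gave -0.01, -0.18 and -0.38 (SE 0.22 each) and ER HSP90 -0.15, -0.22 and -0.37 (SE 0.19 each). The upper end of the 95% interval stayed at or below 0.78, 0.64 and 0.88 at the 3 times over the 9 loci, again below a doubling. Median changes over the list were -0.01, -0.18 and -0.19. Both safeners were set against the same DMSO libraries, so their values are not independent.

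Metcamifen and cyprosulfamide share a methoxybenzoyl sulfonamide core and differ in the group at the far end of the second ring, a methylurea in metcamifen and a cyclopropyl amide in cyprosulfamide. This pair was compared at equal dose and time, with p adjusted over all tested loci. The contrast called 0, 1 and 0 of the 9 loci at 30, 90 and 240 min, where 1.42%, 6.79% and 3.94% of all tested loci were called. DESeq2 gave the same numbers, and 1 locus of the 9 at each time had an unadjusted p under 0.05. So did 2508, 4669 and 3662 of all 26465 tested loci. The call was again bZIP39 at 90 min, lower with metcamifen, with a log2 difference of -0.41 (SE 0.12, adjusted p = 0.03 in edgeR). It was called in 10 of 13 alternative settings. It was lost without Cyprosulfamide_90min replicate 2 (-0.33, adjusted p = 0.176), without Metcamifen_90min replicate 2 (-0.36, adjusted p = 0.138) and without Metcamifen_90min replicate 3 (-0.39, adjusted p = 0.0988).

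At 30 min the metcamifen and cyprosulfamide libraries of bZIP39 did not overlap either, with a difference of -0.32 that did not pass (SE 0.11, adjusted p = 0.279), and at 240 min it was -0.29 (SE 0.12, adjusted p = 0.235). At the other loci no difference between the safeners was detected, which does not show that they act alike. For calreticulin and protein disulfide isomerase at 90 min the 95% interval of the difference ran from -0.26 to 0.06 and from -0.20 to 0.20. For LOC_Os02g02410 it ran from -0.60 to 0.30 and for ER HSP90 from -0.51 to 0.27. For the sparse BiP locus LOC_Os05g35400 it ran from -1.37 to 0.50.

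Some of the chaperones were lower at the last time of sampling. In the DMSO cultures at 240 min LOC_Os02g02410 stood at 613.7, 937 and 1036 CPM in replicates 1, 2 and 3, and at 90 min at 975, 1411 and 1484 CPM. Each replicate number was lower at the later time, although the groups overlapped. Without a block no locus of the list was called between 240 and 90 min in DMSO by edgeR or DESeq2 (0.71% of all loci called in edgeR), and 4 had an unadjusted p under 0.05. So did 2414 of all 26465 tested loci. Same-numbered DMSO libraries deviated together over time, as did same-numbered metcamifen libraries. This pairing was judged from the same counts and is not given by the sample titles. With the replicate number as a block 5 of 9 were called, all lower at 240 min (3.77% of all loci called).

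These 5 were LOC_Os02g02410 (log2 fold change -0.59, SE 0.062, adjusted p = 3.29e-06), calnexin (-0.43, SE 0.058, adjusted p = 8.15e-05), ER HSP90 (-0.31, SE 0.059, adjusted p = 0.00335), LOC_Os05g35400 (-1.24, SE 0.22, adjusted p = 0.00138) and bZIP39 (-0.29, SE 0.076, adjusted p = 0.0308). In that fit bZIP50 stood at -0.24 (adjusted p = 0.0797). Protein disulfide isomerase at 0.02 and calreticulin at -0.07 did not pass (adjusted p = 0.914 and 0.635). Between 240 and 30 min in DMSO the count was 0 without the block and 5 with it, all lower (1.89% and 7.01% of all loci called). Between 90 and 30 min it was 0 in both fits (0.242% and 1.67% of all loci called). Unadjusted p under 0.05 was seen for 3 and 1 loci in these unblocked comparisons, and for 3274 and 1495 of all 26465 tested loci. DESeq2 called 0 of the 9 in each.

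**Figure D3:**
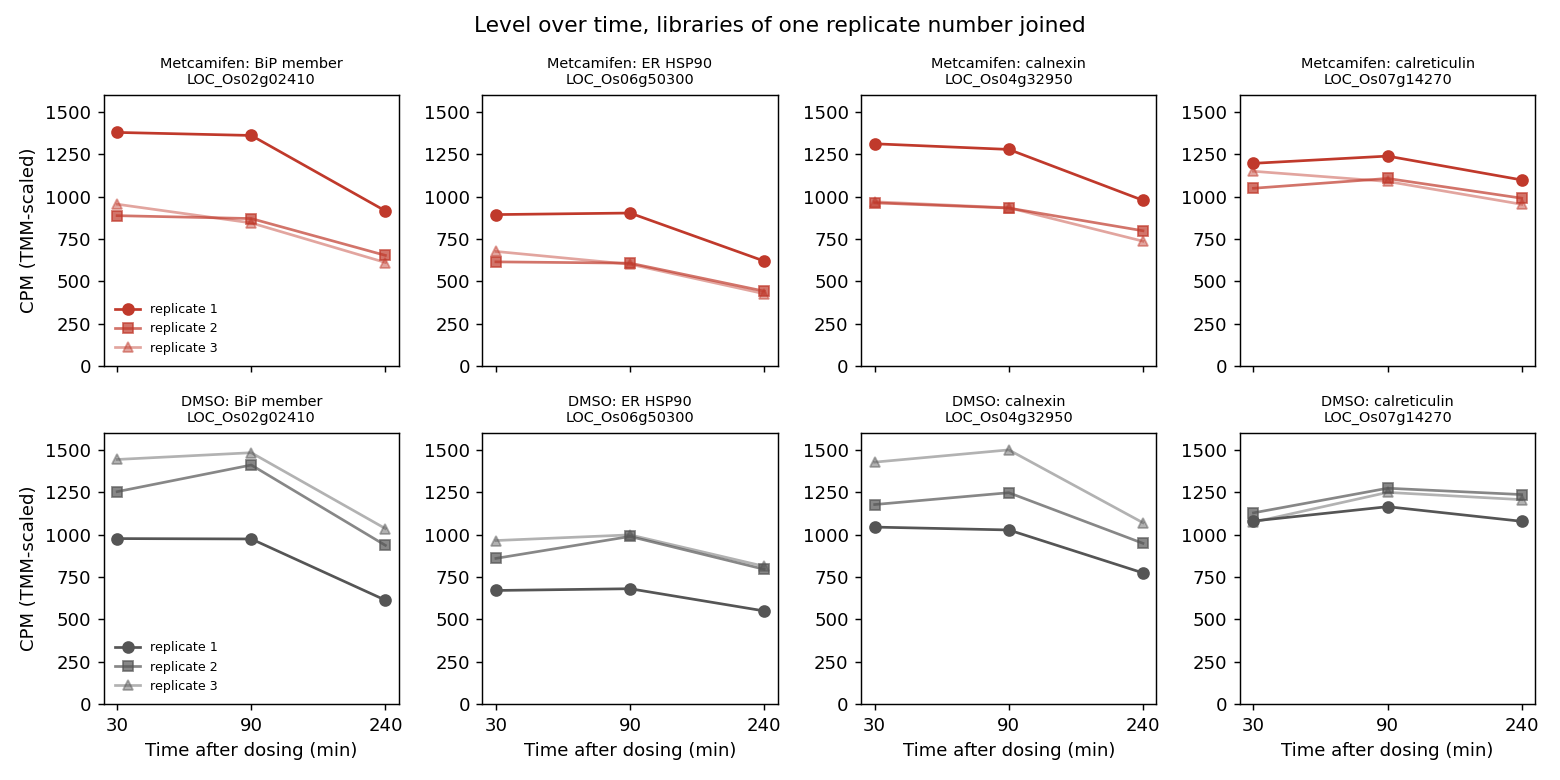
CPM of the BiP locus LOC_Os02g02410, ER HSP90, calnexin and calreticulin at 30, 90 and 240 min, in metcamifen cultures (top) and DMSO cultures (bottom); lines join libraries of one replicate number. In each of the first 3 loci all 6 lines are lower at 240 min than at 90 min, while metcamifen replicate 1 is the highest of its treatment and DMSO replicate 1 the lowest of its own.

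The metcamifen cultures were compared over time as well. ER HSP90 was lower at 240 min, at 619.4, 442.0 and 426.8 CPM in replicates 1, 2 and 3, than at 90 min, at 902.8, 607.2 and 600.6 CPM. Without the block 0 of 9 loci were called between 240 and 90 min by edgeR or DESeq2 (6.65% of all loci called in edgeR), and 4 had an unadjusted p under 0.05. So did 4927 of all 26465 tested loci. ER HSP90 passed without Metcamifen_240min replicate 1 (-0.70, adjusted p = 0.0469). That is the highest library of its group, so leaving it out lowers the change by construction. With the block 5 of 9 were called, all lower at 240 min (14.7% of all loci called). They were ER HSP90 (-0.50, SE 0.06, adjusted p = 1.99e-06), LOC_Os02g02410 (-0.48, SE 0.062, adjusted p = 4.83e-06), bZIP50 (-0.50, SE 0.077, adjusted p = 5.37e-05), calnexin (-0.32, SE 0.058, adjusted p = 0.000424) and calreticulin (-0.17, SE 0.057, adjusted p = 0.0401).

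bZIP39 was not among them, at 0.06 (SE 0.083, adjusted p = 0.707 with the block). Its step came earlier, between 90 and 30 min, at -0.37 in both fits: it did not pass without the block (SE 0.12, adjusted p = 0.0672; 5.41% of all loci called) and was the single locus called with it (SE 0.081, adjusted p = 0.003; 10.4% of all loci called). In cyprosulfamide cultures the mean of bZIP39 was also lower at 90 min (23.7 CPM) than at 30 min (28.8 CPM), called in neither fit. In DMSO cultures the means were 27.8 and 28.2 CPM. None of the 9 loci passed the test of a change in the metcamifen effect, from 30 to 90 min (1.69% of all loci called) or from 90 to 240 min (1.93%), so a difference between treatments in these time courses was not shown. DESeq2 also called 0, and 1 locus of the list in each, bZIP39, had an unadjusted p under 0.05. Among all 26465 tested loci, 2516 and 2733 did. In cyprosulfamide cultures, LOC_Os02g02410 stood at 622.4, 736 and 631 CPM at 240 min against 1006, 1262 and 1147 CPM at 90 min, with no overlap. No locus of the list was called there between 240 and 90 min (0.54% of all loci called; LOC_Os02g02410 at -0.78, SE 0.22, adjusted p = 0.119) or between 90 and 30 min (0.193%), with unadjusted p under 0.05 for 4 and 1 loci. Over all 26465 tested loci, 3078 and 2677 had an unadjusted p under 0.05 in these comparisons. Same-numbered cyprosulfamide libraries of 240 and 90 min also deviated together, and with the replicate number as a block 4 of 9 loci were called, all lower at 240 min (3.35% of all loci called). They were LOC_Os02g02410 (-0.78, SE 0.062, adjusted p = 1.56e-07), ER HSP90 (-0.46, SE 0.06, adjusted p = 7.76e-05), calnexin (-0.38, SE 0.058, adjusted p = 0.00045) and LOC_Os05g35400 (-1.15, SE 0.27, adjusted p = 0.0165). Without the block, the call of LOC_Os02g02410 depended on the fit, since DESeq2 (adjusted p = 0.0292), a fit with no filter on low counts (adjusted p = 0.0339) and a fit to the compared libraries alone (adjusted p = 0.00314) called it.

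Within groups, the replicates differed in the same way at most loci. Metcamifen replicate 1 was the highest of its 3 libraries at 9 of 9 loci at 30, 90 and 240 min alike. DMSO replicate 1 was the lowest at 8 of 9 loci at 30 min, calreticulin being the exception, and at 9 of 9 at 90 and 240 min. Cyprosulfamide replicate 1 was the lowest at 7, 7 and 3 of 9 loci at 30, 90 and 240 min. Among replicate 1 libraries alone, metcamifen lay above DMSO at every chaperone and folding enzyme at 30, 90 and 240 min. At LOC_Os02g02410 this turned the order of the treatments at 90 min. There replicate 1 had 1360.3 CPM with metcamifen and 975 CPM with DMSO. Replicates 2 and 3 had 870.2 and 845 CPM with metcamifen and 1411 and 1484 CPM with DMSO. bZIP39 kept its order in each number at that time, at 19.8, 16.5 and 17.5 CPM with metcamifen against 25.8, 27.3 and 30.3 CPM with DMSO. At 240 min, replicate 1 of metcamifen lay below that of DMSO for bZIP39 (20 and 21.4 CPM) and bZIP50 (48.7 and 50 CPM). What sets the replicate 1 libraries apart was not tested.

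With the 6 replicate 1 libraries of metcamifen and DMSO left out, a setting chosen after they were seen, metcamifen against DMSO called 6, 6 and 7 of the 9 loci at 30, 90 and 240 min, all lower, where 7.02%, 7.05% and 11.8% of all tested loci were called. LOC_Os02g02410 was then at -0.55, -0.76 and -0.64 at the 3 times (adjusted p = 0.00929, 0.000402 and 0.00165), and calnexin at -0.43, -0.56 and -0.40 (adjusted p = 0.0197, 0.00231 and 0.0223). ER HSP90 was at -0.50, -0.72 and -0.89 (adjusted p = 0.00394, 6.29e-05 and 8.36e-06), and bZIP50 at -0.55, -0.56 and -0.74 (adjusted p = 0.00496, 0.00316 and 0.000307). These chaperones and the substrate of IRE1 passed at all 3 times in this setting, while bZIP39 passed at 30 and 90 min (-0.43 and -0.76) but not at 240 min (-0.36, adjusted p = 0.0871). Calreticulin and protein disulfide isomerase passed at 240 min only, at -0.33 and -0.44 (adjusted p = 0.0179 and 0.00205). Of the sparse BiP loci, LOC_Os05g35400 passed at 30 and 90 min, at -1.19 and -1.51, and LOC_Os08g09770 at 240 min, at -1.06. Those libraries hold the highest metcamifen values and, except for calreticulin at 30 min, the lowest DMSO values. Leaving them out lowers these changes by construction, so the counts are no evidence of an effect.

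**Figure D4:**
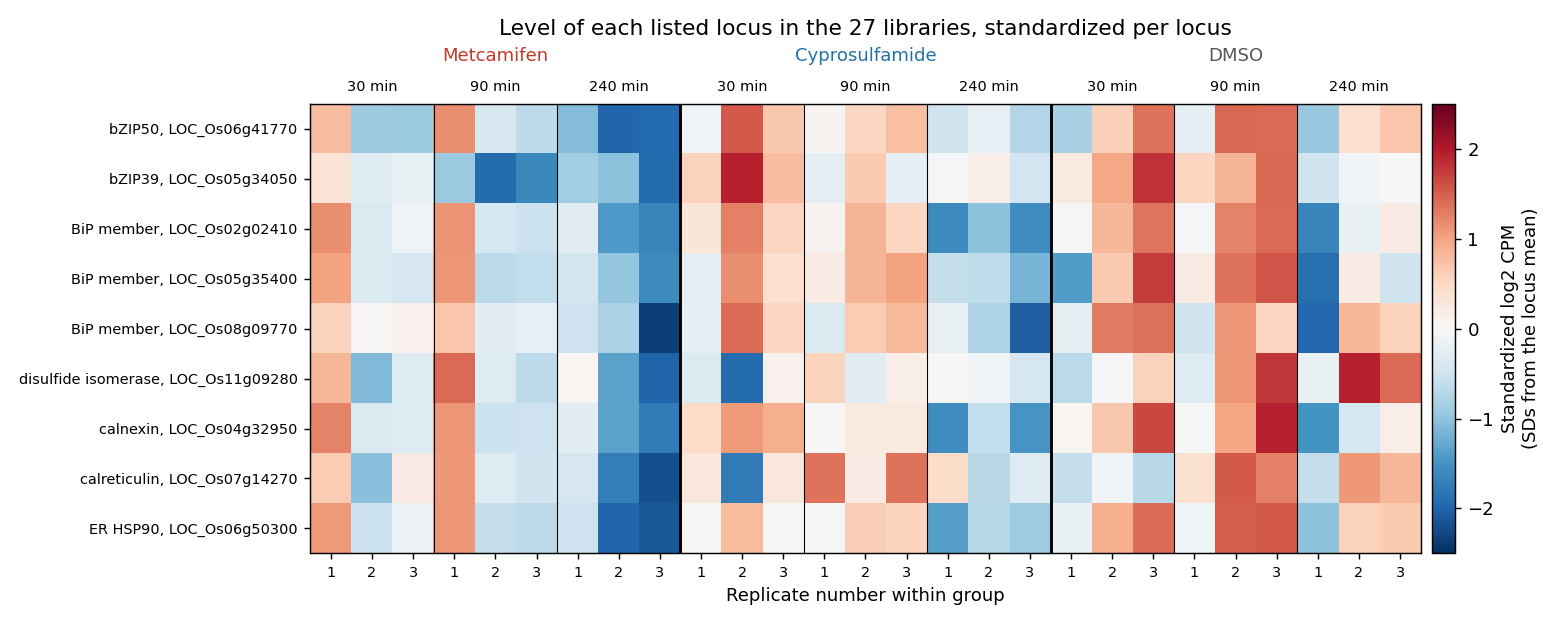
Standardized log2 CPM (SDs from the mean of each locus over the 27 libraries; red high, blue low) of the 9 loci (rows) in every library (columns), ordered by treatment, time and replicate number. Metcamifen replicate 1 is redder than replicates 2 and 3 at each time, and DMSO replicate 1 is bluer than its own at nearly every locus.

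The loci differed in how closely they moved together. The 27 libraries share treatments and times, and the labels do not say whether they share cultures. Over them, the Pearson correlation of log2 CPM between pairs of the 9 loci ran from 0.221 to 0.97, with a median of 0.692 over 36 pairs. The highest was between LOC_Os02g02410 and calnexin (0.97; Spearman 0.983) and the lowest between bZIP39 and calreticulin (0.221; Spearman 0.22). For deviations from the group means, which hold no treatment or time difference, LOC_Os02g02410 and ER HSP90 gave 0.984, and bZIP50 and LOC_Os02g02410 gave 0.953. These deviations do hold the offset of the metcamifen and DMSO replicate 1 libraries described above, and how much of each correlation rests on it was not tested. Calreticulin and protein disulfide isomerase gave 0.846 over all libraries and 0.88 within groups. With LOC_Os02g02410, calreticulin gave 0.47 over all libraries and 0.473 within groups, and protein disulfide isomerase gave 0.456 over all libraries and 0.712 within groups. Against the mean profile of the other chaperones, ER HSP90 gave 0.953 and calreticulin 0.62.

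Among 15509 other loci with a mean log2 CPM above 3, those most like the mean profile of the 7 chaperones and enzymes were LOC_Os06g12120 (Pearson r = 0.933 over 27 libraries, 12.9 to 67.4 CPM) and LOC_Os02g48110 (0.929, 144.6 to 254 CPM). Those running most against it were LOC_Os05g47850 (-0.901, 34.4 to 55.9 CPM) and LOC_Os03g11320 (-0.866, 15.8 to 27.9 CPM). They are given by identifier only.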

How the data were processed

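The authors deposited 1 table of raw read counts per locus and library; that these are unscaled counts was checked from the values. GSNAP and edgeR are the tools listed in the submitters' processing notes, with no version. Not given in the sources used here are the build, the gene models, strand use and how reads matching several loci were treated, so counts of near-identical or overlapping loci, the BiP family among them, are uncertain. Of the table's identifiers, 0 matched the RefSeq gene table (assembly ASM3414082v1, 39387 rows).

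Loci were filtered with filterByExpr (minimum count 10, minimum total 15), which left 26465. Counts were TMM-scaled and tested on the whole table with edgeR 4.0.16's quasi-likelihood test in R 4.3.3, as 9 group means over 27 libraries (18 residual degrees of freedom), two-sided, with Benjamini-Hochberg adjustment within each comparison; a call is an adjusted p under 0.05. Standard errors and 95% intervals are Wald values with the quasi-likelihood dispersion. p-values measure the spread between these libraries, which may be partly technical. DESeq2 1.42.0 was an alternative. Scripts were tested on simulated data.

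The sample titles give no replicate numbers, so pairing by number was judged from these same counts, by correlating deviations from group means. Same-numbered libraries over time correlated at 0.246 to 0.738 in metcamifen and 0.354 to 0.824 in DMSO and were taken as paired. In cyprosulfamide they gave 0.201 to 0.548 between 240 and 90 min, taken as paired, and -0.0791 to 0.411 in the comparisons with 30 min, not paired. Between treatments at one time they gave -0.837 to -0.292 for metcamifen and DMSO, -0.54 to 0.0993 for metcamifen and cyprosulfamide and 0.0444 to 0.586 for cyprosulfamide and DMSO (0.502 to 0.586 in replicate 1), so these were not paired. For comparisons over time and for the change of the metcamifen effect, the block was treatment and replicate number together (12 residual degrees of freedom). That fit held all 27 libraries, so the cyprosulfamide libraries of 30 min shared its block although they were not taken as paired. Among the alternative settings, comparisons between treatments had a block of replicate number alone, common to all treatments, although these libraries were not taken as paired either.

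The loci, lists and comparisons were chosen with earlier results of these data known, and the time courses within each safener were added after values were seen. All 9 listed loci are named. Of the other loci, the 2 most and 2 least like the chaperones' mean log2 CPM (prior count 2) are named. A pathway list by gene name and promoter motifs were not used, as identifiers are unpaired with names.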

Additional observations from a re-analysis of the deposited data

How the results depend on the processing

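None of the 2295 values of single loci under the alternatives was a called change of opposite sign, and 161 values that passed in neither fit changed sign. The call of bZIP39 with metcamifen against DMSO at 90 min held in every setting run. The cause of each difference below was not tested, unless its construction shows it. With the replicate block, the loci called of 9 became 5 instead of 0 for DMSO at 240 min against 90 min and against 30 min and for metcamifen at 240 against 90 min, 1 instead of 0 for metcamifen at 90 against 30 min, and 4 instead of 0 for cyprosulfamide at 240 against 90 min. In that order, the share of all loci called rose too, from 0.71%, 1.89%, 6.65%, 5.41% and 0.54% to 3.77%, 7.01%, 14.7%, 10.4% and 3.35%. The block changed the count of the 9 loci in no other comparison. For cyprosulfamide at 240 against 90 min, DESeq2 and no filter gave 1 each (1.6% and 0.33% of all loci tested in that setting called) and the compared libraries alone 3 (0.987%). For metcamifen at 90 against 30 min, the compared libraries alone and thinning to the smallest library gave 1 each (8.64% and 4.01%). Without the DMSO replicate 1 libraries of all times, metcamifen against DMSO at 240 min gave 3 (5.74%). Without these and the metcamifen replicate 1 libraries, metcamifen against DMSO gave 6, 6 and 7 at 30, 90 and 240 min (7.02%, 7.05% and 11.8%), metcamifen against cyprosulfamide 1, 4 and 2 (1.6%, 6.15% and 3.37%), cyprosulfamide against DMSO at 240 min 2 (4.7%), DMSO at 240 against 90 min 1 (0.608%) and metcamifen at 240 against 90 min 3 (5.71%). That setting without replicate 1 of DMSO and metcamifen kept replicate 1 of cyprosulfamide. It leaves out the lowest DMSO and the highest metcamifen values of most of the 9 loci. It so lowers the changes of each safener against DMSO, and of metcamifen against cyprosulfamide, by construction, and these counts are no evidence of an effect. Leaving out 1 library at a time gave 0 to 2 for metcamifen against DMSO at 240 min, and 0 to 1 for metcamifen against cyprosulfamide at 90 min and for metcamifen at 240 against 90 min. For metcamifen against DMSO at 240 min it gave 2 without DMSO_240min replicate 1 (4.3%) and 1 without Metcamifen_240min replicate 1 (3.85%). Where the call between the safeners was lost, 5.05% to 5.43% of all loci were called. Metcamifen at 240 against 90 min gave 1 without Metcamifen_240min replicate 1 (5.6%). The median correlation between the loci was 0.692 with a prior count of 2 and of 0.5. The sparse BiP loci had as few as 13 counts in a library, and what limits their precision was not tested.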
